A study of Physcomitrium patens with 8 samples.

Results

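The difference between a knockout line and wild type was described in unstressed chloronemata of the moss Physcomitrium patens, and the genes that differed there were then read in 3 treated pairs of libraries. For each gene, log2(value + 10) in the untreated PpanrKO library (KO) minus the same in the untreated wild-type library (WT) was taken. Genes with a mean of at least 20 over the 8 libraries were kept, which left 19821 of 26610 gene models. All libraries came from the Gransden strain, from chloronemata 6 days after subculture on BCDAT agar under continuous light. The groups were KO untreated, KO with ABA (1e-05 M, 1 h), KO with mannitol (10% w/v, 1 h) and KO dried in a desiccator over saturated NaCl to a 70% loss of fresh weight, and each had a WT library of the same condition. RNA of 3 biological replicates was pooled into each library, so every group is 1 library and the spread between cultures was not measured. The sources used here do not say whether KO is 1 clone or how it was checked. The treated tissue was moved to soaked paper or to open dishes, and no such transfer is described for the untreated tissue.

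Chloronemata are the green, photosynthetic filaments with which moss protonema growth starts. Abscisic acid (ABA) is the hormone by which land plants answer loss of water, and mosses treated with it come to tolerate drying. ANR, for ABSCISIC ACID NON-RESPONSIVE, is known in P. patens as a Raf-like protein kinase of the ABA pathway, acting ahead of the kinases that switch on ABA-responsive genes. The untreated pair compares the genotypes without added hormone or stress. The deposited gene models carry no names, and the RefSeq table at hand shared 0 IDs with them. The targeted gene was therefore not read as a check of the labels, no marker of chloronemata was looked up, and genes are given by ID and position (build V3.0).

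The untreated libraries held 32889911 reads in KO and 26126876 in WT, a ratio of 1.26. Each deposited value is a whole read count times 1 factor per library, and those factors did not divide out the number of reads. The median gene therefore stood at 0.32 log2 units between KO and WT, against 0.33 for the log2 ratio of total reads. For this reason the main counts below, such as the set sizes, are also given after depth correction. There, reads are divided by median-of-ratios size factors, so that the median untreated difference is -0.03. That moves the median by 0.34, and 19756 genes then pass the minimum. Most other counts by fold, such as those for single treated pairs, are on the deposited scale only. On that scale the all-gene median was 0.38 with ABA, 0.00 with mannitol and 0.28 with dehydration. The counts of the single treated pairs thus carry unequal depth offsets. Folds of single genes are ratios of depth-corrected reads, with the exact 95% counting interval of the ratio in brackets. These intervals cover counting error only, because amplified reads are not independent molecules and there is 1 library a group.

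At rest the 2 genotypes were close for most of the 19821 genes and at least 4-fold apart for 346. Across genes, the 2 untreated libraries had a Pearson r of 0.95, against 0.70 with ABA, 0.85 with mannitol and 0.76 with dehydration. Genes are not independent replicates, so these values only describe the libraries. At least 4-fold higher in KO were 179 genes (0.903% of those kept), and 167 were at least 4-fold lower (0.843%). After depth correction the counts were 96 higher (0.486%) and 240 lower (1.21%), so the balance of the 2 directions depends on the scaling. At a 2-fold threshold the deposited scale gave 1811 higher (9.14%) and 638 lower (3.22%), and the depth-corrected scale gave 800 (4.05%) and 1088 (5.51%). The far ends leaned to the lower side on both scales: past 16-fold there were 11 higher and 27 lower genes on the deposited scale, and 9 and 35 after depth correction. Gene models that may be copies sharing reads are counted singly here, and both ends hold some. The values at the edges of the sets were 2.001 just inside and 1.991 just outside for higher genes, and -2.004 and -1.998 for lower genes. Each of the 346 genes had a counting interval whose near bound was at least 2-fold. Both sets drew on every level of abundance: 3 equal groups of genes by mean value, from low to high (6607 each), held 76, 47 and 56 of the higher genes and 74, 31 and 62 of the lower genes. Gene models of both sets spanned less of the genome than the median kept model of 3089 bp, with medians of 2422 bp for the higher and 2086 bp for the lower set. In bulk tissue, fewer cells of a kind and less RNA per cell cannot be told apart.

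**Figure D1:**
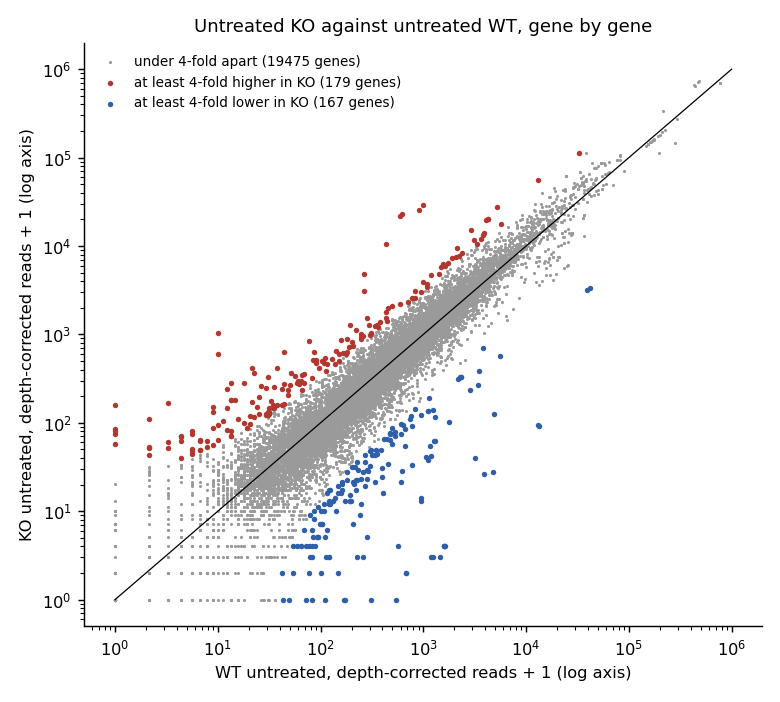
Depth-corrected reads plus 1 of each kept gene in untreated KO (vertical log axis) against untreated WT (horizontal log axis), 1 library each; the line marks equal levels. On the deposited scale the 179 red genes passed 4-fold upward in KO and the 167 blue genes 4-fold downward, and 19 of the blue genes have at most 3 reads in KO with at least 100 in WT. Several of those 19 may be copies that share reads.

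The genes higher in KO had a median depth-corrected level of 363 reads in untreated KO and 61.6 reads in untreated WT. These 2 libraries chose the set, so a lower WT level was fixed by the rule. The largest difference was in Phpat.002G032200 (chromosome 2, 4798138 to 4800447, plus strand). It had 1019, 828, 1510 and 1143 reads in the KO libraries (untreated, ABA, mannitol, dehydration) and 8, 2, 20 and 1 reads in the WT libraries. Every KO library was far above every WT library, and the untreated fold was 113 (57.4 to 263). Phpat.026G025700 (chromosome 26, 3672772 to 3675034, minus strand) showed 22857, 92800, 48866 and 9697 reads in KO and 547, 210, 9197 and 8 reads in WT. It was 37.2-fold higher in untreated KO (34.2 to 40.6), and the mannitol WT library was the one WT library in which it was abundant. In the untreated pair, 3 genes had at most 3 reads in WT and at least 100 in KO, and they were chosen after their values were seen. Phpat.001G129600 (chromosome 1, 22768812 to 22769720, plus strand) showed 154, 891, 3445 and 135 reads in KO and 0, 0, 45 and 0 reads in WT, which puts untreated KO at least 45.7-fold higher with 3 reads as the WT floor. Phpat.003G121600 had 108 reads in untreated KO and 1 in untreated WT, but 167 and 134 reads with mannitol, so that pair nearly met. Phpat.014G059700 had 165 and 2 reads untreated, and 752 and 220 with mannitol.

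The most abundant members of the higher set were both on chromosome 19. Phpat.019G072400 (14066037 to 14067325, minus strand) showed 111721, 94438, 106732 and 57555 reads in KO and 28655, 32246, 54976 and 11088 reads in WT. Its untreated fold was 3.47 (3.43 to 3.52), and it was under 2-fold with ABA (1.30) and with mannitol (1.79). Phpat.019G012100 (2117876 to 2121328, minus strand) showed 55171, 59494, 75221 and 36856 reads in KO and 11471, 9975, 35789 and 10244 reads in WT, an untreated fold of 4.28 (4.20 to 4.37). For both genes the untreated fold was larger than the fold in each treated pair.

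Genes lower in KO were, at the far end, near silence in the KO line. The median depth-corrected level of the lower set was 18.3 reads in untreated KO and 269 in untreated WT. At most 3 reads in untreated KO with at least 100 in WT were found for 19 of the 167 genes. Among these 19 are Phpat.011G015300, Phpat.011G015400 and the 8 models from Phpat.1Z052200 to Phpat.1Z052900. Most of those models may be copies that share reads, so the 19 genes are fewer separate signals. The largest difference by the log2 scale was in Phpat.026G007800 (chromosome 26, 776337 to 777519, minus strand), with 26, 77, 107 and 22 reads in KO and 4190, 14703, 1328 and 5607 reads in WT. It was 181-fold lower in untreated KO (123 to 277), and the highest KO library, at 107 reads, was far under the lowest WT library, at 1328. Phpat.011G015300 (chromosome 11, 2385571 to 2387273, minus strand) came next, with 3, 31, 2 and 17 reads in KO and 1417, 2040, 1423 and 417 reads in WT, an untreated ratio of 530 (181 to 2575). Only 2 genes had at most 3 reads in every KO library and at least 100 in every WT library, Phpat.001G140500 and Phpat.001G042900, chosen after their values were seen, and 0 genes had the opposite pattern. The first (chromosome 1, 24268835 to 24275759, minus strand) was at least 176-fold lower in untreated KO, with 0 reads against 471. The second (chromosome 1, 7528180 to 7530060, plus strand) showed 3 reads against 499, a ratio of 187 (63.5 to 909). The most abundant lower genes were Phpat.020G059400 (chromosome 20, 10735647 to 10737303, minus strand) and Phpat.020G059500 (10743085 to 10745075, plus strand). Phpat.020G059400 had 3305, 490, 1073 and 997 reads in KO and 36664, 15760, 4480 and 48648 reads in WT, which is 12.5-fold lower untreated (12 to 12.9). Phpat.020G059500 ran in parallel with it at 12.4-fold lower (11.9 to 12.8).

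Some differences came in blocks of neighbouring gene models. Of the higher genes, 33 lay in 14 runs of at least 2 neighbours (18.4% of the set), and of the lower genes 38 lay in 14 runs (22.8%). With gene models that run in parallel joined, 22 of 170 higher signals lay in 10 runs (12.9%) and 23 of 151 lower signals in 10 runs (15.2%). For comparison, 1.09% of the kept genes outside the higher set lay directly beside one of its members, and 1.06% of those outside the lower set beside one of its members. The longest higher run was 5 models on chromosome 26, from Phpat.026G025700 to Phpat.026G026100 (3672772 to 3843939). Its members were between 24.3-fold and 37.2-fold higher in untreated KO, with 10396 to 28331 reads in KO and 381 to 873 in WT. The next models on either side were not in the set: Phpat.026G025600 had 29941 reads in KO and 15672 in WT, and Phpat.026G026200 had 186 and 156. Shorter higher runs were Phpat.001G090300 to Phpat.001G090500 (chromosome 1, 17036958 to 17065892) at 7.72-fold to 9.05-fold, and Phpat.003G005700 to Phpat.003G005900 (chromosome 3, 798948 to 938191) at 4.26-fold to 6.38-fold. Among the lower genes, Phpat.026G007800, Phpat.026G007900 and Phpat.026G008000 (chromosome 26, 776337 to 840310) were 181-, 146- and 152-fold lower. The 8 models from Phpat.1Z052200 to Phpat.1Z052900 (scaffold_51, 50350 to 99920) had 0 to 3 reads each in untreated KO and 269 to 1381 in untreated WT. Phpat.011G028100 to Phpat.011G028400 (chromosome 11, 4822994 to 4834296) were 6.83-fold to 8.18-fold lower. Phpat.003G115700 to Phpat.003G115900 (chromosome 3, 20192900 to 20197899) were 22.7-fold to 30.3-fold lower.

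Several of these models may be copies that share reads, so their single values are uncertain. Models were called parallel where their log2 ratio stayed within 0.4 over the 8 libraries. Joining parallel models left 170 signals for the 179 higher genes and 151 for the 167 lower genes. The largest parallel group held 7 models: Phpat.011G015300 and Phpat.011G015400 on chromosome 11 together with 5 of the scaffold_51 models. Phpat.011G028100 and Phpat.011G028200 had the same number of reads in each of the 8 libraries. Phpat.1Z052600 and Phpat.1Z052700 overlap on the plus strand, so counting by strand would not separate their reads. The sources used here do not say whether counting used strand.

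**Figure D2:**
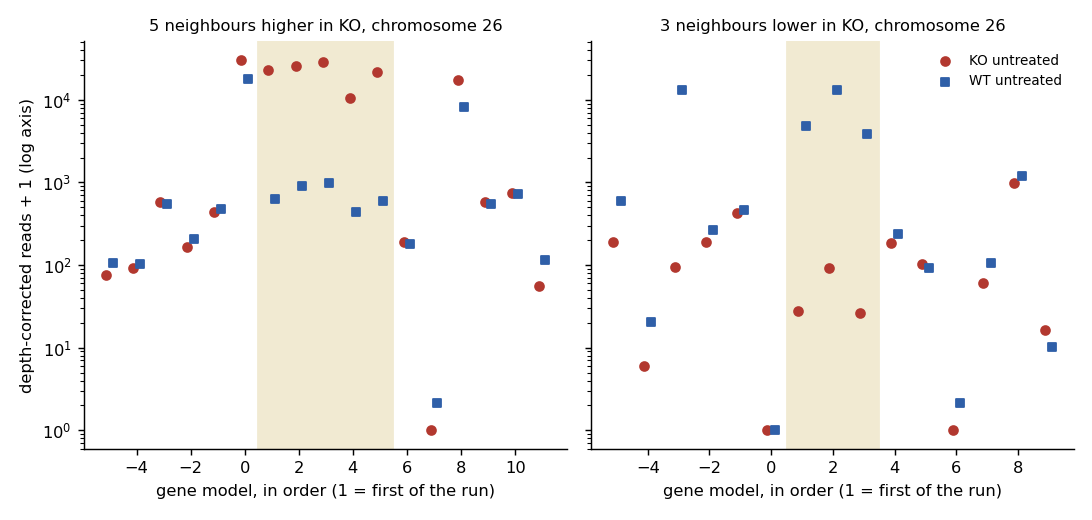
Depth-corrected reads plus 1 (log axis) of gene models in order along chromosome 26, in untreated KO (red circles) and untreated WT (blue squares), 1 library each; shading marks the run, and position 1 is its first model. On the left, the 5 shaded models are 24.3-fold to 37.2-fold higher in KO; on the right, the 3 shaded models are 146-fold to 181-fold lower, and the model at position -3, Phpat.026G007400, parallels one of them.

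The higher genes were not spread evenly over the genome: chromosome 19 stood apart from the other 26 chromosomes. This was noticed after the values were seen. Chromosome 19 carried 613 kept genes (3.09%), yet it held 32 of the 179 genes 4-fold higher in untreated KO (17.9%) and 4 of the 167 lower genes. Of its genes, 66.1% passed 2-fold upward in untreated KO, against 5.18% to 11.8% on the other chromosomes. After depth correction its median gene was 0.88 log2 units higher in untreated KO, whereas the medians of the other chromosomes ran from -0.10 to -0.01. Set against all other genes, the median of chromosome 19 was 0.92 higher untreated, 1.00 with ABA, 0.94 with mannitol and 0.89 with dehydration, which are 1.89-, 2.00-, 1.91- and 1.86-fold. The sign was the same in 4 of 4 pairs, and no test was made of a chromosome picked for its values.

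The shift was seen in each window along chromosome 19. In 20 consecutive windows of 30 kept genes, the untreated median difference lay between 0.73 and 1.02. The 624 windows of the other chromosomes lay between -0.56 and 0.29, so the 2 groups of windows did not overlap. With mannitol the chromosome 19 windows (0.61 to 1.19) again lay above each of the 624 other windows, while with ABA 27 other windows and with dehydration 6 other windows reached the lowest chromosome 19 window. In untreated KO 86.9% of chromosome 19 genes were above 0 after depth correction, against 41.6% to 49.3% on the other chromosomes. The share of all reads that fell on chromosome 19 was 4.86% in untreated KO and 2.91% in untreated WT. It was 4.57% and 3.50% with ABA, 5.44% and 3.02% with mannitol, and 5.12% and 2.95% with dehydration, in KO and WT of each pair. The ratio of the 2 shares was 1.67 untreated, above the 0.78 to 1.26 of the other chromosomes, but with ABA the ratio of 1.31 was within the others' range of 0.60 to 1.51. Over the 3 treated pairs, 283 chromosome 19 genes (46.2%) were called higher in KO by limma at an adjusted p under 0.05, against 827 genes elsewhere (4.31%). edgeR called 205 (33.4%) and 605 (3.15%). Genes lower in KO were still found there, such as Phpat.019G017200 (2938347 to 2940469, minus strand) with 38 reads in untreated KO and 2772 in untreated WT. The other 3 lower genes of the chromosome were Phpat.019G008600, Phpat.019G008700 and Phpat.019G077600. Without chromosome 19, the untreated sets held 147 higher and 163 lower genes. The genomic DNA of the lines was not analysed here.

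**Figure D3:**
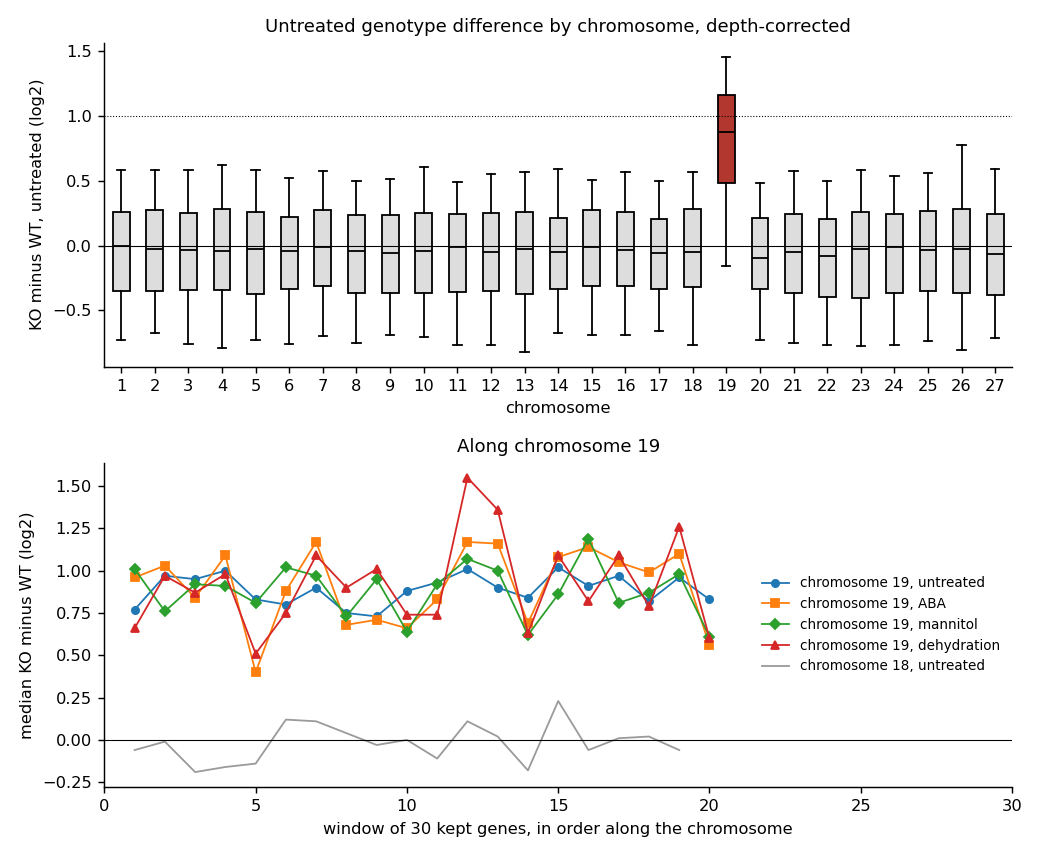
Top, depth-corrected KO minus WT (log2) of kept genes in the untreated pair by chromosome; boxes give the quartiles and median, whiskers the 10th and 90th percentiles, and the dotted line marks 2-fold. Bottom, medians of 30-gene windows along chromosome 19 in each pair of libraries, with chromosome 18 untreated in grey; the 20 untreated chromosome 19 windows lie between 0.73 and 1.02.

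Whether the untreated difference lasted was read in the treated pairs, which share no library with the untreated pair. Of the 179 genes higher in untreated KO, 143 (79.9%) kept at least a 2-fold excess in KO with ABA, where 26.2% of all kept genes had one. With mannitol 117 did (65.4%, against 7.43% of all genes), and with dehydration 159 did (88.8%, against 22.7%). In all 3 treated pairs 110 of the 179 passed 2-fold (61.5%, against 4.11% of all genes), 36 were in 2 pairs, 17 in 1 pair and 16 in none. The median differences of the set were 2.36 untreated, 2.79 with ABA, 1.68 with mannitol and 3.16 with dehydration, beside 0.32, 0.38, 0.00 and 0.28 for all genes. After depth correction 62 of the 96 higher genes did so (64.6%, against 3.36%). Read the other way, 177 genes passed 4-fold upward in KO in all 3 treated pairs. Of them 121 (68.4%, against 9.14% of all genes) passed 2-fold upward untreated.

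Of the 167 genes lower in untreated KO, 142 (85%) kept a deficit of 2-fold or more with ABA, where 12.7% of all kept genes had one. With mannitol 121 did (72.5%, against 10.1% of all genes), and with dehydration 153 did (91.6%, against 12%). In all 3 treated pairs 116 passed 2-fold downward (69.5%, against 5.86% of all genes), 25 were in 2 pairs, 18 in 1 pair and 8 in none. After depth correction this held for 145 of 240 genes (60.4%, against 6.53%). The median difference of the set was -2.59 untreated, -4.85 with ABA, -3.38 with mannitol and -4.01 with dehydration. For the 240 genes picked after depth correction, the medians were -2.63, -3.95, -2.18 and -3.91 in the same order. The 2 sets hold different genes, so their medians do not compare the scales alone. On the deposited scale 114 of the 167 genes (68.3%) were further apart with ABA than untreated, 78 (46.7%) with mannitol and 115 (68.9%) with dehydration. These counts have no all-gene share beside them, and the spread over all kept genes was also wider in the treated pairs. The 5th percentile of all genes was -0.73 untreated, -2.55 with ABA, -1.75 with mannitol and -2.20 with dehydration. Read the other way, 589 genes passed 4-fold downward in KO in all 3 treated pairs, with a median untreated difference of -0.48. Of them 187 (31.7%, against 3.22% of all genes) passed 2-fold downward untreated. On the depth-corrected scale that share was 41.7% of 619 genes, against 5.51% of all genes.

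**Figure D4:**
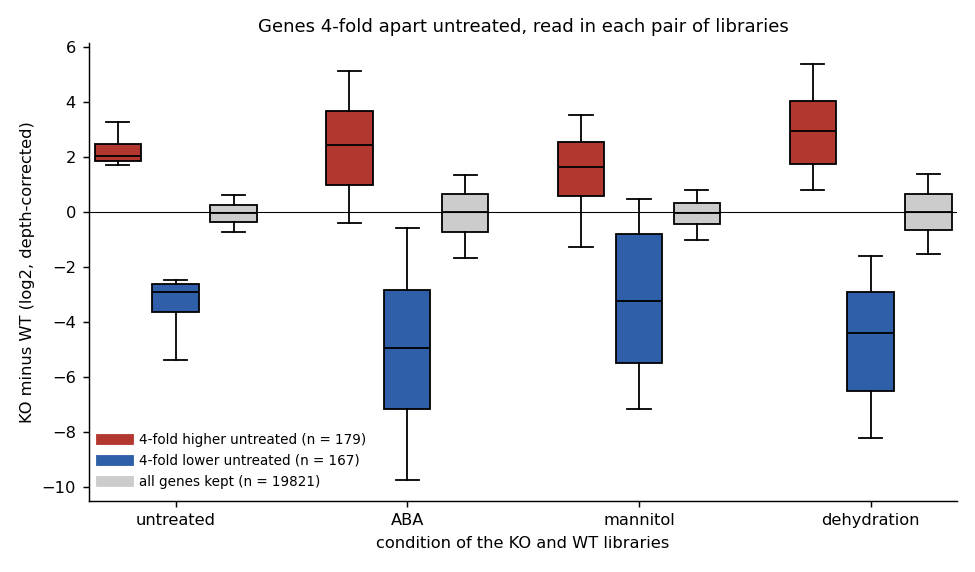
Depth-corrected KO minus WT (log2) in each pair of libraries for the 179 genes 4-fold higher in untreated KO (red), the 167 genes 4-fold lower (blue) and all 19821 kept genes (grey); boxes give the quartiles and median, whiskers the 10th and 90th percentiles over genes. In each treated pair the red box is centred above 0 and the blue box below 0, while the grey boxes are centred near 0; the untreated boxes show the values that chose the sets.

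The levels behind those medians differed between the 2 sets. For the lower set the median depth-corrected level in KO was 18.3 reads untreated, 14.7 with ABA, 8.8 with mannitol and 15.6 with dehydration. In WT it was 269, 713, 174 and 498 reads in the same order, and 90 of the 167 genes had their highest WT library with ABA and 3 with mannitol. For the higher set it was 363, 350, 372 and 414 reads in KO and 61.6, 34.9, 110 and 20.3 reads in WT. In that set 86 of the 179 genes had their highest WT library with mannitol. The same counts over all kept genes are not given here, so neither is read as a trait of its set. The median levels of both sets differed more across the WT libraries than across the KO libraries. In WT the lower set was highest with ABA and the higher set was lowest with dehydration. All-gene medians of each library are not given here, so this too is not read as a trait of the sets. The lower set was also picked for low values in untreated KO.

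A test was possible over the 3 treated pairs, with treatment as the repeated factor. limma on log2(value + 10) in the 6 treated libraries had 2 residual degrees of freedom, and its residual also holds the genotype-by-treatment difference. It called 1110 genes higher in KO (5.60%) and 1336 lower (6.74%) at a Benjamini-Hochberg adjusted p under 0.05. The quasi-likelihood test of edgeR called 810 (4.09%) and 1466 (7.40%), and limma after depth correction called 903 (4.57%) and 1606 (8.13%). Of the 179 genes higher in untreated KO, 116 rose in KO over the treated pairs (64.8%) and 6 fell, by limma, and 89 (49.7%) and 6 by edgeR. Of the 167 genes lower in untreated KO, 115 fell (68.9%) and 1 rose by limma, and 117 and 1 by edgeR. These counts rest on which treatments entered: without the ABA libraries limma called 42 of the higher and 82 of the lower genes, and without mannitol 138 and 137. Over all genes it called 141 higher and 559 lower without ABA, 4030 and 2014 without mannitol, and 494 and 959 without dehydration. With no filter on low genes limma called none, though 6228 genes had an unadjusted p under 0.05. Because RNA was pooled, these p-values speak of differences between libraries, not of the spread between cultures.

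Phpat.002G032200 had a treated genotype effect of 5.97 ± 0.35 log2 units (SE; limma adjusted p = 0.00081, edgeR adjusted p = 0.0029), higher in 3 of 3 treated pairs. The chromosome 26 block was less even. Phpat.026G025700 had an effect of 6.37 ± 1.22 (limma adjusted p = 0.028), which did not pass in edgeR (adjusted p = 0.069), and its treated folds were 196 with ABA, 4.89 with mannitol and 746 with dehydration. The other 4 models of that block behaved likewise, with limma adjusted p of 0.027 to 0.029 and edgeR adjusted p of 0.067 to 0.078. The chromosome 1 run held under both tools: Phpat.001G090300 rose by 4.81 ± 0.35 (limma adjusted p = 0.0017, edgeR adjusted p = 0.0025), with 903, 1831 and 411 reads in KO and 5, 65 and 7 reads in WT with ABA, mannitol and dehydration. Phpat.019G012100 had an effect of 1.41 ± 0.32 (limma adjusted p = 0.045), but the adjusted p was 0.11 in edgeR and 0.077 in limma after depth correction. Phpat.019G072400 did not pass (limma adjusted p = 0.10).

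Among the lower genes, Phpat.026G007800 fell by 6.52 ± 0.89 log2 units over the treated pairs (SE; limma adjusted p = 0.011, edgeR 0.029). Phpat.011G015300 fell by 5.77 ± 0.50 (limma adjusted p = 0.0025, edgeR 0.0063). Phpat.020G059400 fell by 4.63 ± 0.76 (limma adjusted p = 0.018, edgeR 0.043), and it was 72.6-fold lower with ABA and 79.2-fold with dehydration but 4.54-fold with mannitol. Phpat.001G140500 and Phpat.001G042900 fell by 5.24 ± 0.56 and by 5.25 ± 0.67 (limma adjusted p = 0.0049 and 0.0087).

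A few lower genes, already far apart at rest, were further apart in each treated pair. The 4 on chromosomes 14, 12, 19 and 1 were chosen after their values were seen. Phpat.014G094200 (chromosome 14, 15372801 to 15374035, plus strand) showed 2, 9, 11 and 5 reads in KO and 228, 16422, 5505 and 10373 reads in WT. KO stayed at a handful of reads throughout, while WT was high in each treated library. Its ratio was 128 untreated (35.0 to 1063) and 4120 with ABA (2170 to 9011), and it fell by 9.38 ± 0.51 over the treated pairs (limma adjusted p = 0.00068, edgeR 0.0028). Phpat.012G077500 (chromosome 12, 14787189 to 14788506, plus strand) showed 12, 8, 3 and 18 reads in KO and 834, 71358, 21401 and 41745 in WT. Phpat.019G017200 had 38, 95, 25 and 62 reads in KO and 2772, 158210, 46364 and 78802 in WT. Phpat.001G121200 (chromosome 1, 21608510 to 21609769, plus strand) was closer to constant, 39.2-fold lower untreated and 320-, 159- and 156-fold lower with ABA, mannitol and dehydration. In the chromosome 3 run, Phpat.003G115800 had 36, 0, 0 and 71 reads in KO and 971, 177526, 22741 and 75769 in WT. It was 30.3-fold lower untreated (21.7 to 43.5) and at least 133599-fold lower with ABA, with 3 reads as the KO floor. Of the 167 lower genes, 68 were further apart with ABA than untreated by at least 2 log2 units, 43 with mannitol and 55 with dehydration (40.7%, 25.7% and 32.9%). Among all kept genes, 6.73%, 4.80% and 5.20% moved that far downward from the untreated difference. Of the 179 higher genes, 30, 6 and 31 were further apart by as much (16.8%, 3.35% and 17.3%), and 3.81%, 1.42% and 3.11% of all kept genes moved that far upward.

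Whether the genotype difference itself differed between the untreated and the treated libraries was tested with an interaction term over all 8 libraries. limma called 0 genes (1523 had an unadjusted p under 0.05, and the smallest adjusted p was 0.063), and edgeR called 0 as well (1384 unadjusted, smallest adjusted p 0.20). The lone untreated pair is assumed there to vary like the treated pairs. Without the mannitol libraries limma called 405 genes with a higher and 45 with a lower KO minus WT difference untreated than treated, without dehydration 162 and 11, and without ABA 11 and 0. The untreated values that chose the sets are one side of this term, so no count of it within the sets is given. The interaction was estimated at 6.19 ± 0.93 log2 units (SE) for Phpat.012G077500 and 5.01 ± 0.56 for Phpat.019G017200. Both genes were chosen with their untreated and treated values known, so the term is no test of their widening.

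Some differences seen at rest were under 2-fold in all 3 treated pairs on the log2(value + 10) scale, which understates differences between low genes. This held for 1 of the 179 higher and 5 of the 167 lower genes. The same share of all kept genes is not given here, so these counts are not read as a trait of the sets. The higher one, Phpat.003G038400 (chromosome 3, 7310439 to 7313238, minus strand), showed 3419, 3277, 3044 and 4397 reads in KO and 953, 2210, 1578 and 2268 reads in WT. After depth correction WT was lowest with mannitol and next lowest untreated, so the untreated WT library does not stand apart. Phpat.017G073100 (chromosome 17, 13006342 to 13007835, minus strand) showed 20, 369, 214 and 113 reads in KO and 532, 194, 136 and 54 in WT, 29.9-fold lower untreated (19.1 to 49.3). Its untreated minus treated difference was -4.45 ± 0.56 log2 units (SE), an estimate and not a test, because its untreated value chose it. Phpat.018G038700 (chromosome 18, 8903908 to 8906082, plus strand) showed 1 read in untreated KO and 129 in untreated WT, and at most 17 in every treated library. The other 3, named after their values were seen, were Phpat.005G090400, Phpat.009G084300 and Phpat.021G054200, 8.27-, 12- and 10.4-fold lower untreated. By fold, Phpat.009G084300 was also 2.65-fold lower with dehydration (1.45 to 4.96). Phpat.021G054200, with at most 13 reads in any treated library, was 7.06-fold lower with mannitol (1.6 to 64.5) and 6.5-fold with dehydration (1.3 to 62.8). Neither deficit is thus confined to the untreated pair. After depth correction, the genes under 2-fold in all 3 treated pairs were 1 of the 96 higher and 15 of the 240 lower genes. Phpat.003G038400 was then 3.2-fold higher untreated (2.97 to 3.44), which is under 4-fold, so that 1 is another gene.

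Some genes lay on the other side once treated: 23 of the 179 higher genes and 14 of the 167 lower genes passed 2-fold the other way in 1 or more treated pairs (12.8% and 8.38%). Of all kept genes, 18.6% were at least 2-fold lower and 34.5% at least 2-fold higher in KO in 1 or more treated pairs, so both shares are below the background. For 6 higher genes and 1 lower gene this was so in all 3 pairs (3.35% and 0.599%), again below the 5.86% and 4.11% of all genes. These 7, chosen after their values were seen, are the genes of the sets that limma called against their untreated direction. Phpat.001G052000 (chromosome 1, 9484614 to 9488877, minus strand) showed 319, 40, 36 and 122 reads in KO and 71, 2329, 1361 and 1926 in WT. It was 4.00-fold higher in untreated KO (3.09 to 5.25) and 131-, 41.1- and 25.6-fold lower with ABA, mannitol and dehydration, and it fell by 5.15 ± 0.43 over the treated pairs (limma adjusted p = 0.0022, edgeR 0.0048). Its level in KO was highest untreated, whereas in WT it was lowest untreated. Phpat.016G010700 (chromosome 16, 1797350 to 1800716, minus strand) showed 506, 193, 70 and 349 reads in KO and 78, 516, 793 and 1379 in WT, again highest untreated in KO and lowest untreated in WT. Phpat.021G018900 (chromosome 21, 3477345 to 3477434, plus strand) showed 275, 9, 0 and 10 reads in KO and 51, 285, 64 and 299 in WT. Phpat.004G093400, Phpat.005G062500 and Phpat.014G039800 fell by 2.88 ± 0.57, 1.96 ± 0.37 and 3.23 ± 0.64 over the treated pairs (limma adjusted p = 0.030, 0.027 and 0.031). The lower gene that turned, Phpat.007G098600 (chromosome 7, 17170519 to 17173468, plus strand), showed 34, 60, 360 and 66 reads in KO and 198, 1, 44 and 12 in WT. It was 6.54-fold lower untreated (4.53 to 9.71) and rose by 2.22 ± 0.38 over the treated pairs (limma adjusted p = 0.021, edgeR 0.038). The interaction term is no test of the 7, because the untreated values that chose them are one side of it.

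The most extreme turned genes by untreated difference turned in the mannitol pair. Phpat.004G113600 (chromosome 4, 21014251 to 21016581, minus strand) showed 357, 104, 5 and 191 reads in KO and 19, 0, 38 and 5 in WT, 16.7-fold higher untreated (10.6 to 28.1) and 8.26-fold lower with mannitol (3.25 to 26.9). Phpat.006G017100 (chromosome 6, 2910599 to 2911744, plus strand) was 13.0-fold higher untreated and 2.58-fold lower with mannitol. Phpat.024G010300 (chromosome 24, 2798099 to 2798724, plus strand) showed 15, 358, 591 and 41 reads in KO and 355, 77, 53 and 669 in WT. It was lower in KO untreated (26.6-fold) and with dehydration (26.5-fold), but higher with ABA (2.06-fold) and mannitol (10.3-fold). Phpat.022G071700 (chromosome 22, 14026808 to 14028893, minus strand) followed the same order, 13.6-fold lower untreated and 3.94-fold higher with mannitol. None of these 4 passed the treated test (limma adjusted p from 0.26 to 0.96). Their treated pairs differ in sign, which that test takes as residual, so it says nothing on the mannitol turn.

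**Figure D5:**
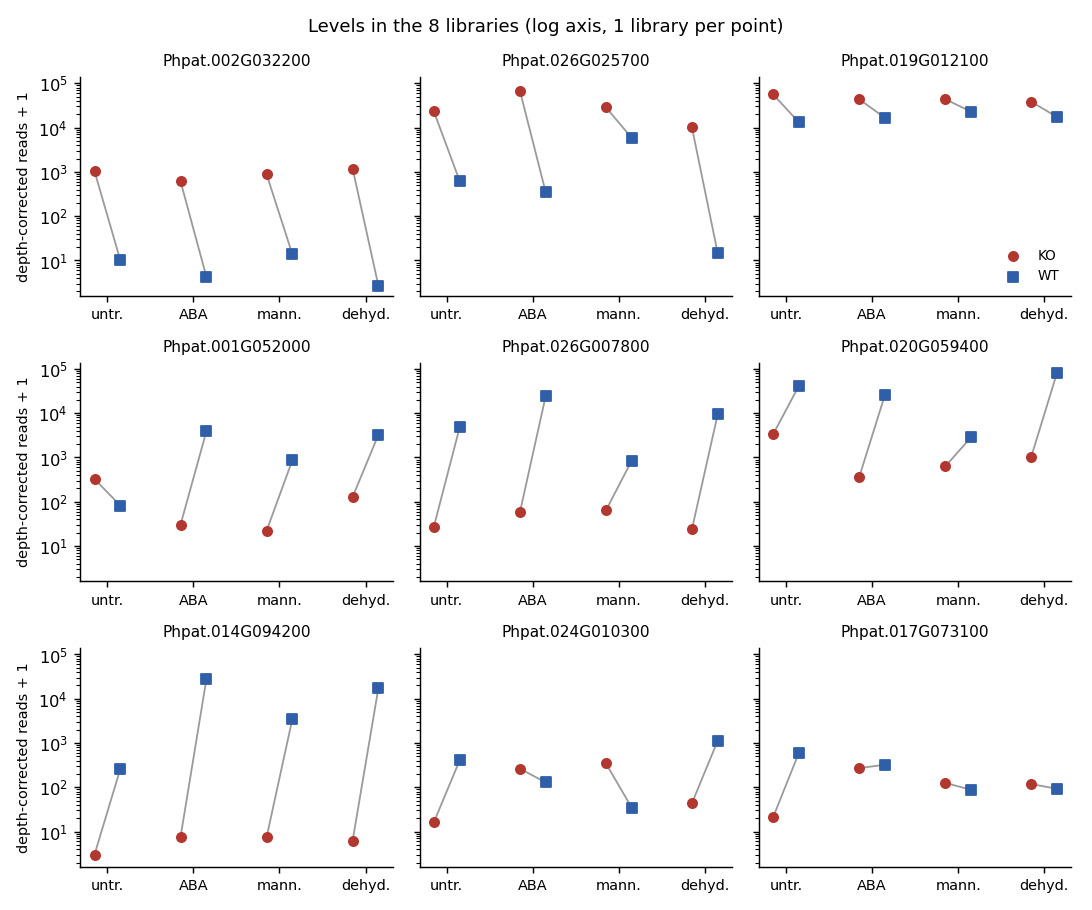
Depth-corrected reads plus 1 (log axis) of 9 named genes in KO (red circles) and WT (blue squares) in the untreated, ABA, mannitol and dehydration pairs; each point is 1 library and lines join a pair. Phpat.002G032200 stays higher in KO in each pair and Phpat.026G007800 lower, Phpat.014G094200 widens with treatment, Phpat.001G052000 turns from higher to lower in KO in all 3 treated pairs, and Phpat.017G073100 differs most in the untreated pair.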

How the data were processed

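Poly(A) RNA-seq of 8 libraries was used, 1 for each of 2 genotypes under 4 conditions, grouped by the genotype and condition in the labels. The authors deposited 1 abundance signal per gene and library. Per the submitters' processing notes, the tools were TopHat2, bedtools, SAMtools, Trimmomatic and FastQC, with no versions given. The sources used here do not give the authors' scaling of the signal. In each library 100% of the values were whole multiples of 1 step within 0.01 read, so whole reads were recovered. The step times edgeR's TMM factor came to 0.9996 to 1, so totals were not divided out. Totals ran from 22516957 to 38767634 reads, and 0 columns were left unmapped.

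Values were analysed as log2(value + 10). limma 3.58.1 with an intensity trend was fitted as treatment plus genotype on the 6 treated libraries, and with a genotype-by-untreated term on all 8. Two-sided p-values received Benjamini-Hochberg adjustment over all 19821 genes. edgeR 4.0.16 (quasi-likelihood, TMM) was run on the recovered reads. Python 3.11.15, pandas 2.3.3, scipy 1.17.1 and R 4.3.3 were used, and the fits were tested on simulated data. Counting intervals are exact (Clopper-Pearson) at 95%, with a floor of 3 reads for 0. Alternatives were another pseudocount, filter or scaling, limma without trend, and leaving out each treatment.

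Named by rule were the 2 highest and 2 lowest untreated differences of all genes, among genes 4-fold the same way in all pairs, among genes under 2-fold in all treated pairs, and among turned genes, then the 2 most abundant of each set and runs of at least 3 neighbours. Members, lists and rules were chosen with earlier results of these data known. Lists by gene function were not applied, because the IDs are not paired with names here.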

Additional observations from a re-analysis of the deposited data

Results flagged for a closer look

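For 11 named genes, KO minus WT in a treated pair had the opposite sign to that of the untreated pair, by at least 2-fold in both after depth correction. The difference between these single pairs was not tested, since each is 1 library a genotype, and the genes were chosen partly for turning. With mannitol alone, the log2 differences were -1.40 for Phpat.004G113600, -1.16 for Phpat.006G017100, 3.03 for Phpat.024G010300 and 1.36 for Phpat.022G071700. Phpat.001G052000 stood at -6.62 with ABA, -4.82 with mannitol and -4.58 with dehydration. Phpat.004G093400 stood at -3.90, -4 and -1.42 in the same order, and Phpat.005G062500 at -3.34, -1.27 and -1.96. Phpat.014G039800 had -5.40, -3.02 and -1.86, Phpat.016G010700 had -2.51, -3.34 and -2.65, and Phpat.021G018900 had -4.86, -2.34 and -4.66. Phpat.007G098600 had 2.21, 2.54 and 1.38.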

How the results depend on the processing

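The number of genes 4-fold higher in untreated KO was 305 with a pseudocount of 1, 83 with 50, 96 after median-of-ratios scaling and 77 after scaling by total reads, against 179. Those lasting in all 3 treated pairs were 172, 50, 62 and 50, against 110. The number 4-fold lower was 299 with a pseudocount of 1, 62 with 50 and 287 after scaling by total reads, against 167, and the lasting ones were 196 and 51 with the 2 pseudocounts, against 116. Over the treated pairs limma called 141 higher and 559 lower without the ABA libraries, 4030 and 2014 without mannitol and 494 without dehydration; of the untreated sets, 42 and 82 were called without ABA. With no filter on low genes 0 and 0 were called, and 0 of either set; the cause was not tested. The interaction called 11 higher without ABA, 162 and 11 without dehydration, and 405 and 45 without mannitol. Of the alternative values of named genes in the untreated pair, 175 were marked as moved and 179 as the same, and none reversed. Of their treated genotype effects, 79 were marked as weaker, 3 as stronger and 406 as the same. No paired analysis was possible because each group has 1 library and replicate numbers come from accession order; this concerns replicate numbers, and the fit over the treated libraries does set KO against WT within each treatment. Counting parallel models once, or leaving out chromosome 19, were chosen after seeing the data and kept the counts within 1.5 times. One library a group limits every comparison: cultures were pooled, so their spread is unknown, and genes with few reads have wide intervals.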
